A study of Gallus gallus with 10 samples.

Results

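DMRT1 and 9 genes that lie around it on the chicken Z chromosome were followed in embryonic hearts of both sexes. In their order along Z, the 10 are PGM5, CBWD1, KANK1, DMRT1, VLDLR, PUM3, SLC1A1, AK3, JAK2 and GLDC. They were picked by gene symbol, as genes of a stretch of Z beside DMRT1 described as having low male to female ratios in these same arrays. All 21 probe sets that the platform annotation gives to the 10 genes were taken, of 38535 probe sets on the array. Of these 21, 13 passed a filter on dim signal, which leaves out the lowest 40% of probe sets by mean over all arrays, and each of the 10 genes kept at least 1 probe set.

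RNA of whole hearts from chicken embryos was hybridised to 10 single-colour arrays. The 5 male samples are labelled as pools of males and the 5 female samples as pools of female heart RNA, each set lettered A to E. Beyond harvest, the labels name no treatment; they give no embryonic age, strain or number of embryos in a pool. Pools carry less animal-to-animal variation than single embryos, and nothing states that pools came from separate embryos, so the spread between pools may be partly technical.

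Male birds carry a pair of Z chromosomes and females a single Z with a W. Birds have no silencing of a whole Z chromosome, and many Z genes are expressed more in males than in females. DMRT1 encodes a transcription factor with a zinc-finger-like DM domain and is needed for testis formation in the chicken. Next to it lies the male hypermethylated region, which is methylated on both male Z chromosomes and transcribed into non-coding RNA from the female Z. The neighbours of DMRT1 include a cytoskeletal regulator, a lipoprotein receptor, a cytokine-signalling kinase, a glutamate transporter and metabolic enzymes.

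The labels of sex and tissue were checked first. HINTW, a gene of the female-specific W, averaged 122991 ± 12720 intensity units in female and 127 ± 112 in male pools (SD, n = 5 each). The heart muscle genes TNNT2 and MYH7 were bright in both sexes, at 197378 and 25563 units in males and 208131 and 26232 in females, and all 7 cardiomyocyte markers were above the filter. The summed levels of each of 10 lists of cell type markers, over the markers with a probe set, overlapped between male and female pools, as did the 3′ to 5′ signal ratios of the actin and GAPDH control probe sets. Bright markers weigh most in a summed level, and the epicardium and neural lists each had 1 marker with a probe set. Of 26 cell type markers above the filter, 1 was called, the heart muscle gene PLN at -0.52 ± 0.11. Array medians ran from 605 to 735 units, and pairs of arrays correlated at 0.946 to 0.971 across probe sets above the filter.

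Intensities below are in the units of the deposited values, and differences are male minus female on a log2(intensity + 16) scale, which understates differences of dim probe sets. The value after each difference is its standard error from a limma fit over all 23063 probe sets above the filter. The genes were chosen on this same difference, so their differences are a description and carry no p-value. A probe set's brightness depends on its sequence, so levels of different genes are not compared. In whole hearts, fewer cells that express a gene and less RNA per cell cannot be told apart.

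DMRT1 was represented by 7 probe sets, of which the brightest was the only one to pass the filter. Its intensity was 461, 811, 946, 827 and 873 in male pools A to E and 1731, 1325, 908, 1126 and 994 in female pools A to E. The sexes overlapped through female C alone, which lay below male C, and the other female pools were above every male pool. Male pools averaged 784 ± 188 and female pools 1216 ± 327 (SD, n = 5 each), and the difference was -0.63 ± 0.23, or 1.54-fold higher in females by the estimate. Pool A held both the lowest male and the highest female value. The difference was -0.45 without male A and -0.49 without female A. Over all alternative settings and left-out arrays it ran from -0.72 to -0.45. Each of these fits read this 1 probe set, also where a gene's probe sets were averaged, since averaging took only those above the filter.

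The other 6 probe sets of DMRT1 were dim and did not share a direction. The next brightest averaged 214 ± 131 in males and 450 ± 174 in females, a difference of -1.17 whose groups overlapped. The third averaged 253 and 295, with single pools from 52.9 to 713. The 4 dimmest had means between 39.6 and 103 units and differences of -0.41, 0.48, 0.47 and -0.13. Without detection calls, these low values cannot be separated from background. DMRT1 is best known in the gonad, so the gonad markers AMH, SOX9, NR5A1, FOXL2 and CYP19A1 were read beside it. Their summed intensity was 6359 to 10784 units in male pools and 7181 to 9968 in female pools, with 3 of the 5 above the filter, SOX9 and CYP19A1 below it and none called. Their part in the DMRT1 signal was not tested.

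**Figure D1:**
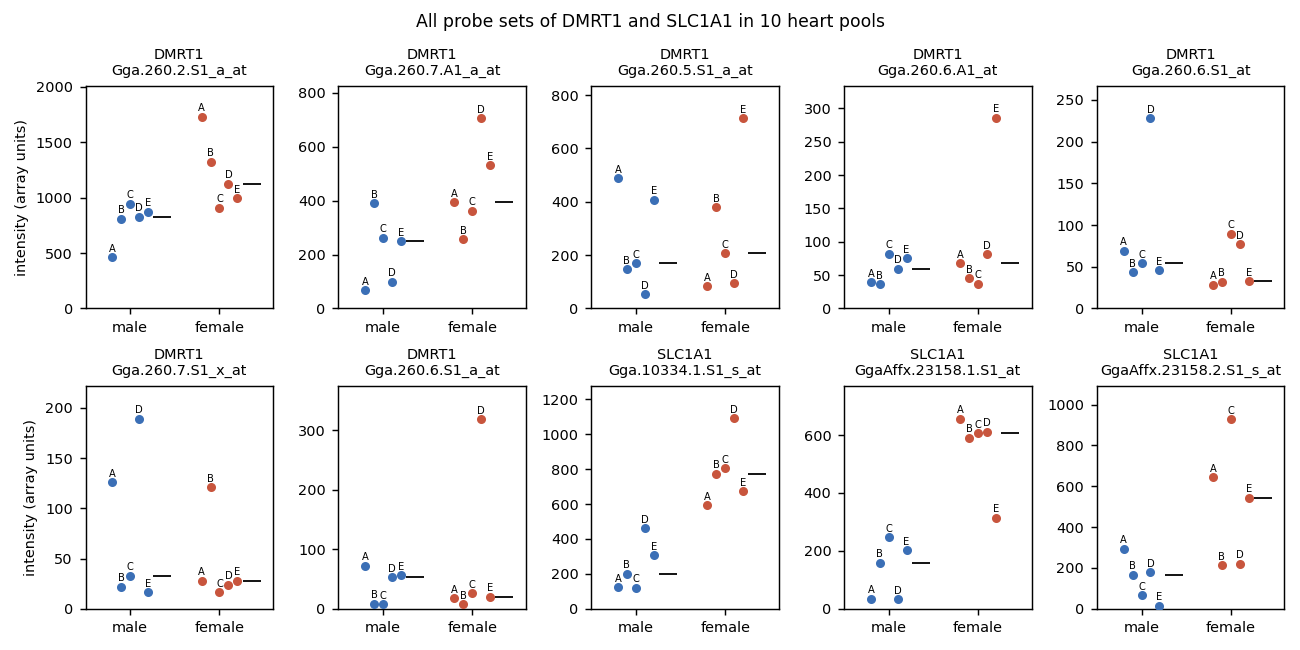
Intensity (array units, linear axis from 0) of each of the 7 probe sets of DMRT1 and the 3 of SLC1A1 in male (blue) and female (red) pools A to E; the short line is the median of a sex. The brightest DMRT1 probe set was lower in most male pools, at 461 to 946 against 908 to 1731 units, the dimmer ones scattered in both directions, and all 3 SLC1A1 probe sets had lower medians in males.

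SLC1A1 encodes a sodium-driven transporter of glutamate and cysteine in the cell membrane. Its brightest probe set read 122, 200, 121, 462 and 307 in male pools A to E and 592, 774, 805, 1092 and 675 in female pools A to E. Every female pool was above every male pool. Male pools averaged 243 ± 144 and female pools 788 ± 190 (SD, n = 5 each). The difference was -1.78 ± 0.37, or 3.43-fold higher in females by the estimate. It passed the filter, which lies at 363 units, through the female pools: its male mean was below that level and its female mean above it.

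The other SLC1A1 probe sets, both below the filter, gave the same direction. The brighter of them read 32.6 to 248 in male pools and 315 to 656 in female pools, without overlap, a difference of -2.21. The dimmer read 14.1 to 294 in males and 213 to 928 in females, where female B and female D lay below male A, a difference of -1.89. All male means of this gene lay between 135 and 243 units, where background cannot be set apart from signal, so neither the size of the fold nor the gene's rank among Z genes is determined.

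AK3, the adenylate kinase of the mitochondrial matrix that uses GTP, was read by a single bright probe set. Its intensity was 5300, 5110, 5325, 5047 and 5140 in male pools A to E and 6633, 8198, 7693, 7524 and 8396 in female pools A to E. The groups were fully separated, and female A was the female pool nearest to the males. Males averaged 5184 ± 122 and females 7689 ± 690 (SD, n = 5 each). The difference was -0.56 ± 0.07, or 1.48-fold higher in females. The male pools lay close together, with an SD of 0.03 on the log2 scale against 0.13 among female pools, a contrast in spread that was not tested.

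GLDC, the glycine-decarboxylating subunit of the mitochondrial glycine cleavage system, was also lower in each male pool. It ranged from 1185 to 1671 units in males, with a median of 1516, and from 1708 to 2097 in females, with a median of 1875. The gap between male C at 1671 and female C at 1708 was small beside the SDs of 190 and 173 units. The difference was -0.36 ± 0.12.

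PGM5, a relative of phosphoglucomutase that in mammals sits at muscle cell adhesion sites, differed little. Its brighter probe set averaged 13671 ± 1386 in male and 13715 ± 1221 in female pools (SD, n = 5 each). The difference was -0.0058 with a 95% interval of -0.17 to 0.16. Its other probe set ran from 2417 to 3175 in males and from 2241 to 3087 in females, a difference of 0.17 ± 0.11. The sexes overlapped in both.

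Among the genes of signalling and cell shape, VLDLR showed a small separation. VLDLR is a receptor for lipoproteins and for reelin, known in the hen for carrying yolk precursors into the oocyte. Its intensity was 17774 to 19290 in male pools and 19772 to 21644 in female pools, so all females were above all males. The means were 18620 ± 580 and 20663 ± 828 (SD, n = 5 each), and the difference was -0.15 ± 0.05, or 1.11-fold higher in females.

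KANK1, a regulator of actin at cell adhesions and the nearest measured neighbour of DMRT1 on the PGM5 side, read 2664, 2478, 2414, 2470 and 2513 in male pools A to E and 2852, 3075, 2529, 3708 and 3165 in female pools A to E. Only female C fell within the male range. The difference was -0.28 ± 0.10, and the male pools were again close together, with an SD of 94.2 units against 435 in females.

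JAK2, the tyrosine kinase that carries signals of erythropoietin, growth hormone and other cytokine receptors, overlapped fully. Its brighter probe set ranged from 1499 to 2234 in males and from 1476 to 2163 in females, a difference of 0.07 with a 95% interval of -0.23 to 0.36. The dimmer averaged 628 ± 97.6 and 541 ± 235, a difference of 0.30 ± 0.29, with female pools from 321 to 866 spanning the male range.

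CBWD1 and PUM3 went against the description of low male to female ratios. CBWD1, a protein with a CobW domain whose mammalian relatives deliver zinc to a metal-dependent enzyme, read 8010, 8018, 7890, 7429 and 8833 in male pools A to E and 6617, 5406, 4500, 5329 and 4992 in female pools A to E. Each male pool was above each female pool, with female A the highest of the females. The difference was 0.59 ± 0.09, or 1.51-fold higher in males. A dimmer probe set of the gene gave 0.72 ± 0.09 with means of 5658 ± 676 and 3420 ± 214, again without overlap.

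PUM3, a nucleolar RNA-binding protein of the Pumilio family, read 11644, 11419, 10861, 11334 and 11893 in male pools A to E and 9175, 8492, 8667, 7972 and 8305 in female pools A to E. The sexes were separated, with means of 11430 ± 385 and 8522 ± 447 (SD, n = 5 each). The difference was 0.42 ± 0.06, or 1.34-fold higher in males. Counted from the lowest ratio of the 492 measured Z genes, CBWD1 ranked 339 and PUM3 256. The probe sets of CBWD1, KANK1 and PUM3 and a pair of those for SLC1A1 end in _s_at, which in the manufacturer's naming marks probes shared by several transcripts, so a related transcript could add to their signal.

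**Figure D2:**
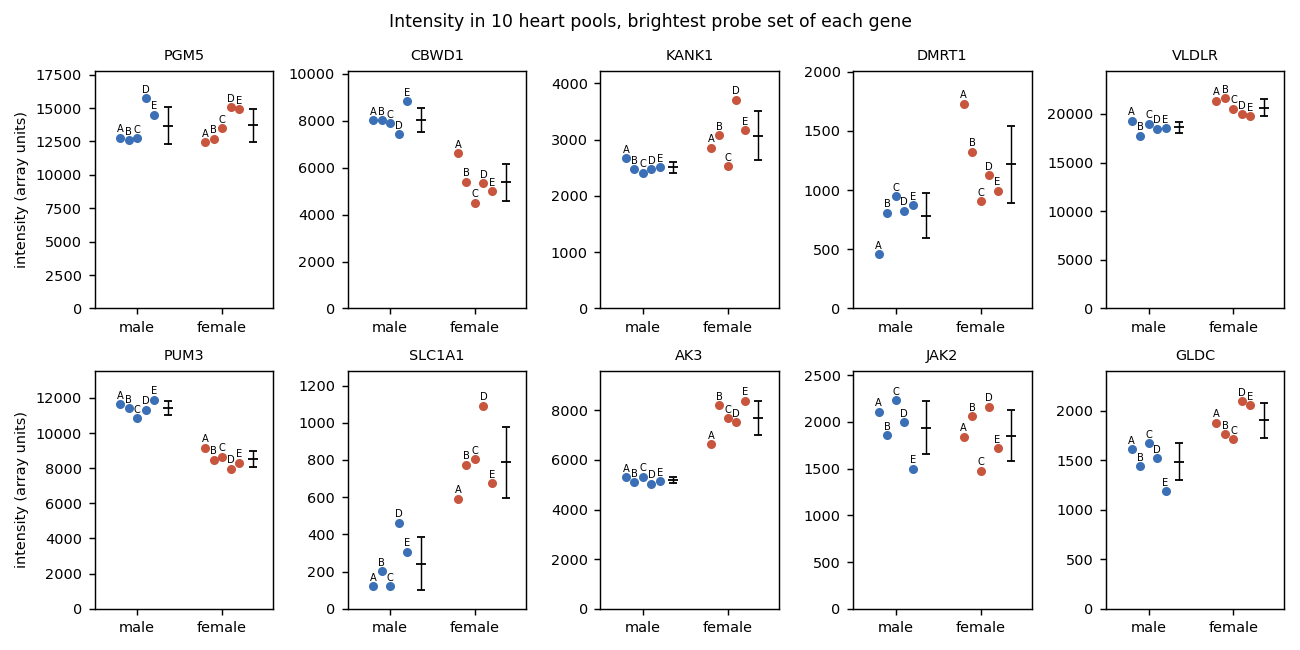
Intensity (array units, linear axes from 0) of the brightest probe set of each of the 10 genes in male (blue) and female (red) pools A to E, with the mean and SD of each sex (n = 5) at its right. SLC1A1, AK3, VLDLR and GLDC were lower in every male pool than in any female pool, and CBWD1 and PUM3 were higher.

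As a list, the 10 genes had a median difference of -0.21, from -1.78 for SLC1A1 to 0.59 for CBWD1. Of the 10, 7 lay below 0, among them PGM5 at -0.0058, whose sign held in 12 of 19 other settings. The 472 measured Z genes outside the stretch had a median of 0.41 and an interquartile range of 0.20 to 0.67. Of these 472, 44 lay below 0, the lowest at -1.03. All 10284 measured genes had a median of -0.02. By limma with Benjamini-Hochberg adjustment at 0.05, CBWD1 and PUM3, or 2 of the 10, were called higher in males, as were 1.99% of all genes and 40.9% of Z genes. SLC1A1 and AK3, another 2, were called higher in females, as were 0.233% of all genes and 0.407% of Z genes. These 2 genes make up that whole Z share: of the 472 Z genes outside the stretch, 0 were called higher in females. No call among the 10 is separate evidence, and SLC1A1 was in the fit only through its level in females. The SLC1A1 call was lost without female C or without female D, at differences of -1.76 and -1.66. Pools did not overlap, with males higher, for 2 of the 10 genes against 2.59% of all genes and 46.1% of Z genes. They did not overlap, with females higher, for 4 of the 10 against 1.32% of all genes and 1.22% of Z genes. That Z share includes the 4 themselves, and outside the stretch it was 2 of 472 Z genes. These counts describe genes picked on the same contrast. From the lowest of the 492 Z genes, DMRT1 ranked 5, AK3 6, GLDC 12, KANK1 16, VLDLR 26, PGM5 51 and JAK2 75. Each rank was read from the brightest probe set and depends on it. The other probe sets of PGM5 and JAK2, also above the filter, gave differences of 0.17 and 0.30. The dimmer DMRT1 probe sets, all below the filter, ran from -1.17 to 0.48.

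**Figure D3:**
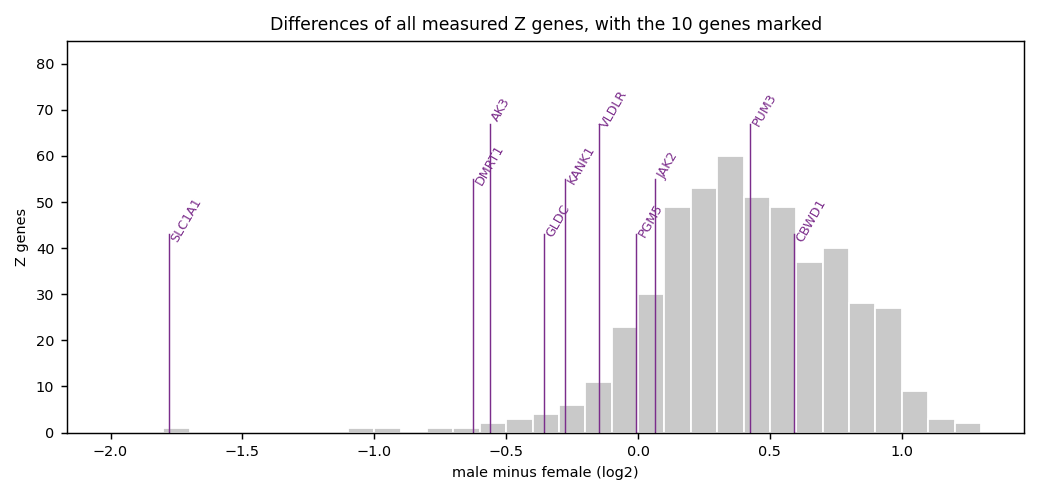
Histogram of male minus female differences (log2) of the 492 measured Z genes in bins of equal width, with lines at the 10 genes around DMRT1. SLC1A1 is drawn at -1.78, a value that rests on dim male levels, while PUM3 at 0.42 and CBWD1 at 0.59 lay in the body of the Z genes.

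Low and ordinary ratios were interleaved along the chromosome. The annotation places 65 genes from PGM5 to GLDC, 38 of them protein-coding, and 18 genes besides the 10 had a probe set. CBWD1 at 0.59 lies between PGM5 at -0.0058 and KANK1 at -0.28, and PUM3 at 0.42 lies between VLDLR at -0.15 and SLC1A1 at -1.78.

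Of the 18 other genes in the stretch, 10 were above the filter, with a median difference of 0.10 and a range from -0.11 to 0.53. Of these 10, limma called 2 with males higher and 0 with females higher, beside 197 and 0 of the 472 Z genes outside the stretch. Of the 10, 3 had an unadjusted limma p under 0.05, beside 299 of the 472 Z genes outside the stretch and 1032 of all 10284 genes. The highest were SMARCA2, an ATPase of the SWI/SNF chromatin remodellers, at 0.53 ± 0.08, KIAA2026 at 0.44 ± 0.12 and RIC1, which activates a RAB6 GTPase, at 0.30 ± 0.07. SMARCA2 and RIC1 were the called genes, and RIC1 passed in 5 of 19 other settings. With its probe sets averaged, RIC1 was at 0.11 (limma adjusted p = 0.829), so its difference depended on the probe set read. SMARCA2 lies between DMRT1 and VLDLR and averaged 17247 in males and 11968 in females. The lowest were the Hsp90 co-chaperone gene CDC37L1 at -0.11 ± 0.13, the ciliary transcription factor gene RFX3 at -0.07 ± 0.17 and the endoplasmic reticulum peptidase gene ERMP1 at -0.0023 ± 0.22. None of these 3 passed the test, and the sign of RFX3 and ERMP1 changed in some settings. The other 8 genes, DOCK8, DMRT3, KCNV2, GLIS3, LOC427353, RLN3, PDCD1LG2 and MLANA, were below the filter. DMRT3, which neighbours DMRT1 and encodes another DM-domain factor, averaged 158 and 183 units at its brightest probe set.

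The genes on both sides of the stretch gave a frame for these values. The 10 measured genes before PGM5, from UTP15 to MAP1B, had a median of 0.51, with 6 called higher in males. The 10 after GLDC, from KDM4C to CCDC171, had a median of 0.38, with 2 called higher in males. Of these 20, limma called 0 with females higher, and 0 were lower in males at an unadjusted p under 0.05. Their lowest values, seen after the fact, were 0.03 for FOXD1 and 0.13 for NFIB. The stretch itself, with all 20 measured genes, had a median of 0.02. Of the 20, 10 lay below 0, among them PGM5 at -0.0058 and ERMP1 at -0.0023. The limits of the stretch were set by the 10 genes described, which were chosen with these differences known. The contrast with the flanks therefore carries no test.

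**Figure D4:**
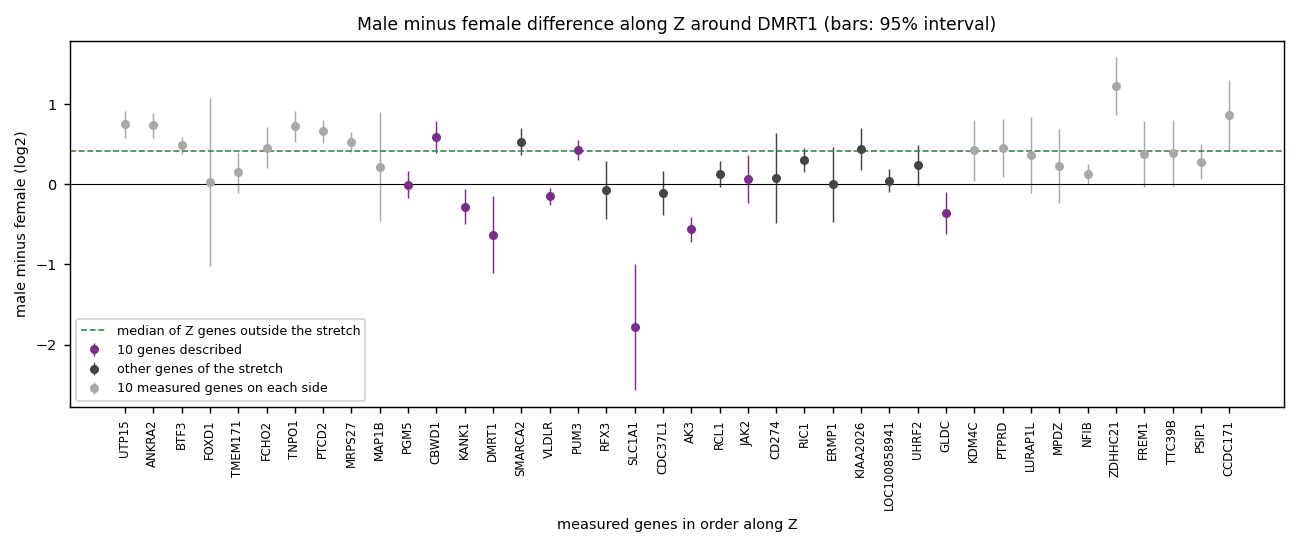
Male minus female difference (log2, with 95% intervals from the limma fit) of measured genes in their order along Z, evenly spaced, for the 10 genes described (purple), the other genes between PGM5 and GLDC (black) and 10 genes on each side (grey). The dashed line marks 0.41, the median of Z genes outside the stretch, which CBWD1, SMARCA2, PUM3 and KIAA2026 reached and the rest of the stretch did not.

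The spread between pools of a sex, which played no part in the choice of genes, differed among them. Each gene's SD within the sexes was ranked among those of the 500 genes nearest to it in level. VLDLR and PUM3 were tight, with a pooled SD of 0.05 and 0.06 on the log2 scale, at the 4.6th and 6.4th percentile. GLDC, AK3 and KANK1 lay at percentiles 16, 21 and 27, JAK2 and SLC1A1 at 50.8 and 54.2, and CBWD1, DMRT1 and PGM5 at 70.6, 71.2 and 72.6. SLC1A1 had the widest pooled SD, 0.60, and DMRT1 the next, 0.38, at levels where the median gene had 0.57 and 0.33.

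With each sex's mean removed, the 10 genes did not move as a block from pool to pool. Over the 45 pairs, Pearson correlations across the 10 arrays ran from -0.61 to 0.78, as a description only, since all arrays share 1 scaling. The highest were PGM5 with SLC1A1 at 0.78 and JAK2 with GLDC at 0.77, and the lowest CBWD1 with AK3 at -0.61. Among all 10283 other genes, those most like DMRT1 by the same measure were the splicing factor gene RBFOX1 at 0.92, the cyclin gene CCNY at 0.90 and the scaffold gene MAGI2 at 0.89. They lie on chromosomes 14, 2 and 1. Their Spearman rank correlations with DMRT1 were 0.88, 0.79 and 0.88. Male A and female A lay farthest from their sex's DMRT1 mean, so they weigh most in the Pearson values. How far the likeness depends on these arrays was not tested. Being the highest of 10283 values over 10 arrays, these correlations were not tested against chance.

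Relatives and partners of the 10 genes elsewhere in the genome were read in the same fit. Of 45 such genes, 26 were above the filter, and they had a median difference of -0.05. Of these 26, limma called 1 with males higher and 0 with females higher, where 2.23% of all genes were called in either direction. An unadjusted limma p under 0.05 was found for 1 of the 26 and for 1032 of all 10284 genes. The called gene was AK6, a nuclear adenylate kinase relative that itself lies on Z, outside the stretch. Among Z genes, 40.9% were called higher in males. AK6 averaged 3833 in males and 2536 in females, a difference of 0.59 ± 0.09 (limma adjusted p = 0.00174). It kept the call in all 19 other settings, where the adjusted p ran from 0.00118 to 0.0112.

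Of the 25 autosomal relatives, 0 passed by limma, and 0 had an unadjusted p under 0.05. AK1 of the cytosol and AK4 of mitochondria had differences of 0.02 ± 0.07 and 0.05 ± 0.17, beside -0.56 for AK3. GCSH and DLD, further subunits of the glycine cleavage system, had -0.04 ± 0.05 and -0.08 ± 0.06, and AMT had -0.16 ± 0.14, beside -0.36 for GLDC. JAK1 was at -0.03 ± 0.07, and JAK3 at -0.40 ± 0.32 (limma adjusted p = 0.784). RELN, which encodes the VLDLR ligand reelin, was at -0.08 ± 0.09 and its intracellular adaptor DAB1 at 0.03 ± 0.13. The glutamate transporter SLC1A6 and the neutral amino acid transporter SLC1A4 were at -0.09 ± 0.09 and 0.01 ± 0.21. PGM1, the main phosphoglucomutase, was at -0.15 ± 0.08, KANK3 and KANK4 were at -0.23 ± 0.15 and -0.0023 ± 0.11, and the Pumilio gene PUM2 was at 0.11 ± 0.15. Differences between each gene and its relatives were not tested.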

How the data were processed

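The authors deposited 1 linear intensity for each probe set and array. How they summarised it, and any detection calls, are not given in the sources used. Judged from these intensity values, each array had the same mean of 2500.5 to 2500.6 after trimming 2% at each end. Probe sets were named through the platform annotation, which can be old: 27178 had 1 symbol, 177 several and 11180 none. Symbols and gene order were taken from the RefSeq table of GRCg7b, by gene ID for 26863 and by symbol for 308, with 7 unmatched. No build is named in the deposited values, so no coordinates are printed.

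Values were analysed as log2(intensity + 16), without 96 control probe sets and the lowest 40% by mean. A gene was read through its brightest probe set. Males and females were compared in limma 3.58.1 (R 4.3.3, eBayes with a variance trend), adjusted over 23063 probe sets by Benjamini-Hochberg. The procedure was tested on simulated data. The rule for genes to name covered the 10 genes, the 3 highest and 3 lowest others of the stretch, called relatives, the 3 genes most like DMRT1, HINTW, TNNT2 and MYH7; other relatives and flanking genes were named after their values were seen. The genes and lists were chosen with earlier results of these data known. Alternatives covered the replicate block, normalization, centring, filter, pseudocount, variance prior, averaging a gene's probe sets above the filter and each array left out. The number of arrays limits the precision.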

Additional observations from a re-analysis of the deposited data

Results flagged for a closer look

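In 5 of 42 groups, formed by the 21 probe sets in each sex, 1 pool stood apart from the other 4 by Dixon's criterion. Chance flags about 1 in 20 groups. For DMRT1, male A was low at 461 in the brightest probe set, and in dimmer probe sets male D was high at 228, female B at 121 and female D at 319. For a dimmer SLC1A1 probe set, female E was low at 315, still above every male pool. Of these, the male A value of DMRT1 is in a probe set above the filter.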

How the results depend on the processing

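Across 9 other settings and 10 fits that each left out 1 array, CBWD1, PUM3, AK3 and SMARCA2 kept their direction and call. KANK1, VLDLR, GLDC and DMRT1 kept their direction and stayed uncalled; DMRT1 and SLC1A1 could not be read with the stricter filter at 60%. PGM5 kept its sign in 12 of 19 and JAK2 in 18, never called. That filter leaves 8 genes, whose median was -0.078, with 1 called higher in females. The median was -0.25 to -0.18 when single arrays were left out, with 1 to 2 called higher in females. SLC1A1 was not called without female C or female D. Other genes of the stretch called higher in males numbered 1 with the replicate block, quantile normalization, no filter and no variance trend, and 1 to 2 without single arrays. RIC1 and KIAA2026 were called in 5 and 2 of the 19 settings. The replicate block, by letter, gave a median of -0.21 and changed no call among the 10 genes; it ended the call of RIC1 (limma adjusted p = 0.0785). Deviations of same-letter arrays correlated at 0.18, 0.057, 0.0025, 0.10 and 0.21 for A to E. For male pools A, B, D and E this was above the correlation with any other female letter, and for C it was not. The labels do not say what a letter marks, and not every value was above 0.1. The letters were therefore not taken as pairs in the main fit. That cut is no test of pairing, so a shared origin of same-letter pools was not tested. Background is unknown, which limits the dim probe sets of DMRT1 and SLC1A1.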
